A study of Mus musculus with 6 samples.

Results

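The genes described here are 46 named genes of the actin cytoskeleton and of the Wasp regulators that control it, followed in stage 0 invariant natural killer T (iNKT) cells of the mouse thymus. They were matched to the count table by gene symbol alone, and the list of symbols was drawn up with earlier results of these data known. Of the 46 symbols, 45 had a row among the 48397 genes of the count table, and all 45 passed the filter on low counts that left 12312 genes for testing. The symbol without a row was Diap1, which RefSeq lists as an older name of Diaph1. Diaph1 had a row and was counted with the other actin genes, not with the members.

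The study compared RNA of stage 0 iNKT cells, the earliest thymic stage of this lineage, between wild-type BALB/c mice and SKG mice, which carry a hypomorphic Zap70 allele on the BALB/c background and so a weaker T cell receptor (TCR) signal. Each genotype had 3 libraries, and each library was made from about 1000 cells sorted from the thymi of 3 mice pooled together. The mice were 8 to 10 weeks old, the labels name no treatment, and the sort took PBS57-CD1d tetramer+ cells that were CD44-, CD24+, CD69+, CD4lo/- and CD8-. The SKG allele is carried in all cells of the mouse, so the selecting thymocytes around the iNKT cells carried it too.

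Actin is a globular protein that assembles into filaments. Profilin, cofilin and the thymosins hold or recycle the monomer, capping proteins close the growing ends, and the Arp2/3 complex starts branches once Wasp or Wave proteins, themselves switched on by Cdc42 and Rac, bind it. In T cells these filaments build the contact with the antigen-presenting cell and couple the TCR to integrins, and loss of Wasp, Dock8 or Coro1a causes immunodeficiency in people and mice. iNKT precursors are selected by contact with CD1d on other thymocytes.

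Several members are pairs of close copies, and short stretches of their coding sequence are shown because 50 nt reads can be told apart only where the copies differ. The letters are the first coding bases from GRCm38, read 5′ to 3′ on the coding strand (all 4 genes lie on the minus strand), with capitals at the bases that differ between the 2 copies of a pair. Actb is read from chr5:142905627-142905686, Actg1 from chr11:120348032-120348091, Tmsb4x from chrX:167207977-167208036 and Tmsb10 from chr6:72957953-72958012.
Actb: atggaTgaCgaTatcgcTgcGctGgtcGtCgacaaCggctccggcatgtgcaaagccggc
Actg1: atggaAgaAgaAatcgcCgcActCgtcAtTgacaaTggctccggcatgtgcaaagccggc
Tmsb4x: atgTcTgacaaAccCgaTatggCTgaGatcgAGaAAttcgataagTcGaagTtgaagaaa
Tmsb10: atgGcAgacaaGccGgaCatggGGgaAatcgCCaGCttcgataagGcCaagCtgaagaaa

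The actin pair differed at 9 of 60 bases shown and was 88.6% identical over 1125 coding bases. The thymosin pair differed at 15 of 60 bases and was 69.7% identical over 132 coding bases. Windows of 50 bases were also counted over the principal transcript of each member. For Pfn1, Tmsb4x and Coro1a, 0 windows recurred in another gene, whereas 56.7% of the windows of Actg1 and 77.4% of those of Capza1 did, most often in a gene annotated as Gm12715 and Gm3608. The counts of such genes are less certain, because reads with several placements fell under the mapping quality filter.

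Actin genes are classic targets of the serum response factor Srf, which binds the CArG box. In the 300-base RefSeq promoter windows of GRCm38, from 250 bases before to 50 after a gene start, both strands were searched for CC, then 6 letters that were each A or T, then GG. The letters were found in 3 of the 39 members with a window (7.69%: Arpc4, Actg1 and Vcl) and in 488 of 27025 genes of that table (1.81%). The windows around the boxes of Actg1 (chr11:120348546-120348605, minus strand) and Vcl (chr14:20929151-20929210, plus strand) are shown with the box in capitals, since Actg1 was among the most counted members and Vcl was the least counted. Not in that table were Actb, Arpc5l, Rac1, Rac2, Coro1b and Skap1.
Actg1: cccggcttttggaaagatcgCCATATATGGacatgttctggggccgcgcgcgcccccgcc
Vcl: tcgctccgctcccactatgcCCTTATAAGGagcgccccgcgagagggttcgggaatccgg

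Counted reads per library ranged from 37176544 to 43115544, and 10835 to 14791 genes had at least 10 reads. Expression is given as CPM, the reads of a gene per 1000000 reads of the library's TMM-normalized total. Genes are compared with each other only as CPM per kilobase of exon, where exon length is that of all annotated exons merged. The principal transcript can be much shorter, so levels per kilobase depend on this choice. The summed level of 9 stage 0 iNKT markers lay between 8144 and 10040 CPM in BALB/c and between 8090 and 9770 CPM in SKG. Most of this sum came from Slamf6, Egr2 and the TCR and CD3 genes Trbc1, Trbc2, Trac and Cd3e. Cd69, Zbtb16 and Cd24a averaged 273, 135 and 47.7 CPM over all libraries. Similar sums therefore do not show that the stage was equal. Of the 9 markers, 0 were called, against 0% of all genes tested. The genotypes did not overlap for 3 of them, against 13.9% of all genes tested. Egr2 and Cd69 lay lower in SKG, and Slamf6 lay higher. Egr2 was at 1547, 1097 and 1408 CPM in BALB/c against 883, 956 and 493 CPM in SKG. Slamf6 was at 2557, 2450 and 2877 CPM in BALB/c against 2962, 3380 and 3631 CPM in SKG. Double-positive thymocyte markers (6 genes) summed to 38.2 to 394 CPM in BALB/c, the highest in replicate 1, and to 54.4 to 151 CPM in SKG. Myeloid markers (7 genes, Cd14 and S100a9 at 0 in all libraries) summed to 0.31 to 53.7 CPM in BALB/c and to 0.397 to 107 CPM in SKG, with BALB/c replicate 1 and SKG replicate 3 the highest of their genotypes, and the part of these cells in the results was not tested. Markers of mature iNKT cells (7 genes) summed to 162 to 314 CPM over all libraries, with Tbx21 at 0. Nearly all of this sum was Il2rb, at 146 to 297 CPM. Summed erythroid markers reached 69.7 CPM in BALB/c replicate 1 and at most 1.57 CPM elsewhere, and those of B cells, platelets and thymic epithelium reached at most 8.38, 0.376 and 86.9 CPM. Cd24a, a gene of the sort gate, was at 52.4, 7.31 and 15.6 CPM in BALB/c against 31.9, 88.6 and 90.7 CPM in SKG, overlapping (edgeR adjusted p = 0.959). Cd69 was at 312, 391 and 354 CPM in BALB/c against 152, 179 and 250 CPM in SKG, without overlap (edgeR adjusted p = 0.686). Zap70 itself was transcribed in both genotypes, at 498, 472 and 374 CPM in BALB/c against 322, 338 and 409 CPM in SKG (adjusted p = 0.953 from edgeR), and its level does not test a point mutation. In bulk RNA, fewer cells of a type and less RNA per cell cannot be told apart.

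The 45 members were 0.093% of the genes in the table and took about 4% of all reads. For BALB/c their share was 4.53%, 4.09% and 4.23% per library, for SKG 4.03%, 4.01% and 4.19%. The genotypes overlapped, and the mean was 4.28% ± 0.223 (SD, n = 3) for BALB/c against 4.08% ± 0.0996 (SD, n = 3) for SKG. The exact Clopper-Pearson 95% interval of each library was at most 0.0129 percentage points wide and covers counting error only on amplified reads. Without BALB/c replicate 1 the difference of the means, SKG minus BALB/c, went from -0.205 to -0.0832 percentage points. With the effective library size as the denominator, the means were 4.25% and 4.14%.

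Reads were concentrated in a few members. Pfn1 was the most counted gene of the whole table, Lcp1 the second and Cfl1 number 8, 13 members were among the 100 most counted genes, and 27 were among the first 500. The 5 most counted members, Pfn1, Lcp1, Cfl1, Coro1a and Actb, held 45.5% of all member reads. Together these 5 took 2.18%, 1.88% and 1.96% of reads in BALB/c against 1.74%, 1.79% and 1.86% in SKG, without overlap. Of the TMM-normalized totals they took 2.19%, 1.9% and 1.87% in BALB/c against 1.73%, 1.82% and 1.91% in SKG, where SKG replicate 3 lay above 2 of the BALB/c libraries. At the other end, Was and Vcl held 0.0404% and 0.00929% of member reads.

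**Figure D1:**
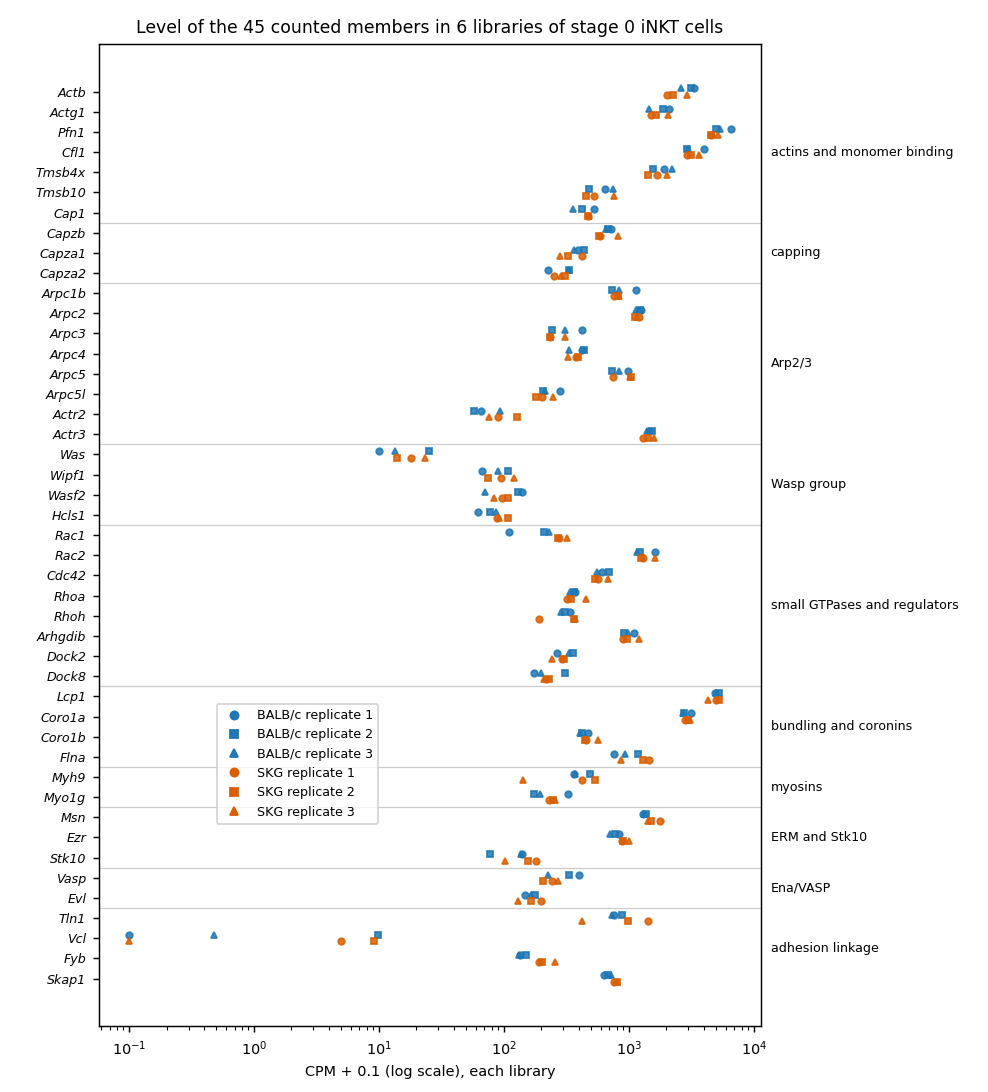
Level of each of the 45 counted members in each of the 6 libraries, in CPM plus 0.1 on a log scale, grouped by role (blue, BALB/c; orange, SKG; marker shape, replicate number). Most members sat within a narrow band from library to library, and Vcl, at 0 to 9.76 CPM, was spread most widely.

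The members varied little between libraries. The highest of the 6 libraries was less than 2-fold above the lowest for 38 of 45 members (84.4%), against 23.2% of all genes tested, which include many genes of low count. The median biological coefficient of variation was 19.2% for the members and 60.9% for all genes tested. Among genes at 100 CPM or more it was 19.1% for 40 members and 24.4% for 2678 genes. Coro1a and Arpc2 were the steadiest, with ranges of 1.15-fold and 1.13-fold over the 6 libraries, and Myh9, Tln1 and Rac1 ranged over 3.76-fold, 3.37-fold and 2.94-fold.

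Between the genotypes, 0 of the 45 members passed both thresholds of edgeR's quasi-likelihood test, an FDR under 0.1 with at least a 1.5-fold change, where the background over all genes tested was 0%. DESeq2 without shrinkage also called 0 members, against 2.58% of the genes to which it gave an adjusted p. At an unadjusted p under 0.05 edgeR gave 1 member, Fyb, against 5.45% of all genes tested. With the library number as a replicate block it gave 1 other member, Rac1, in place of Fyb. BALB/c replicate 3 and SKG replicate 1 shared their number with no library, so they added nothing to the contrast in that fit. Of the 45 members, 22 had a fold change above 1 in SKG and 23 below, with a median log2 fold change of -0.01 (all genes tested, -0.02). The median size of the change was 0.15 on the log2 scale, with a median standard error of 0.18. Over all genes tested, which include many genes of low count, it was 0.43, and the 2 were not matched for level. Of the members, 43 had a fold change under 1.5 in either direction. The lowest adjusted p of a member was 0.734. For 6 members, Hcls1, Rac1, Msn, Ezr, Fyb and Skap1, all 3 SKG libraries lay above all 3 BALB/c libraries, where 6.77% of all genes tested did so. For 0 members did all BALB/c libraries lie above, against 7.12% of all genes tested.

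**Figure D2:**
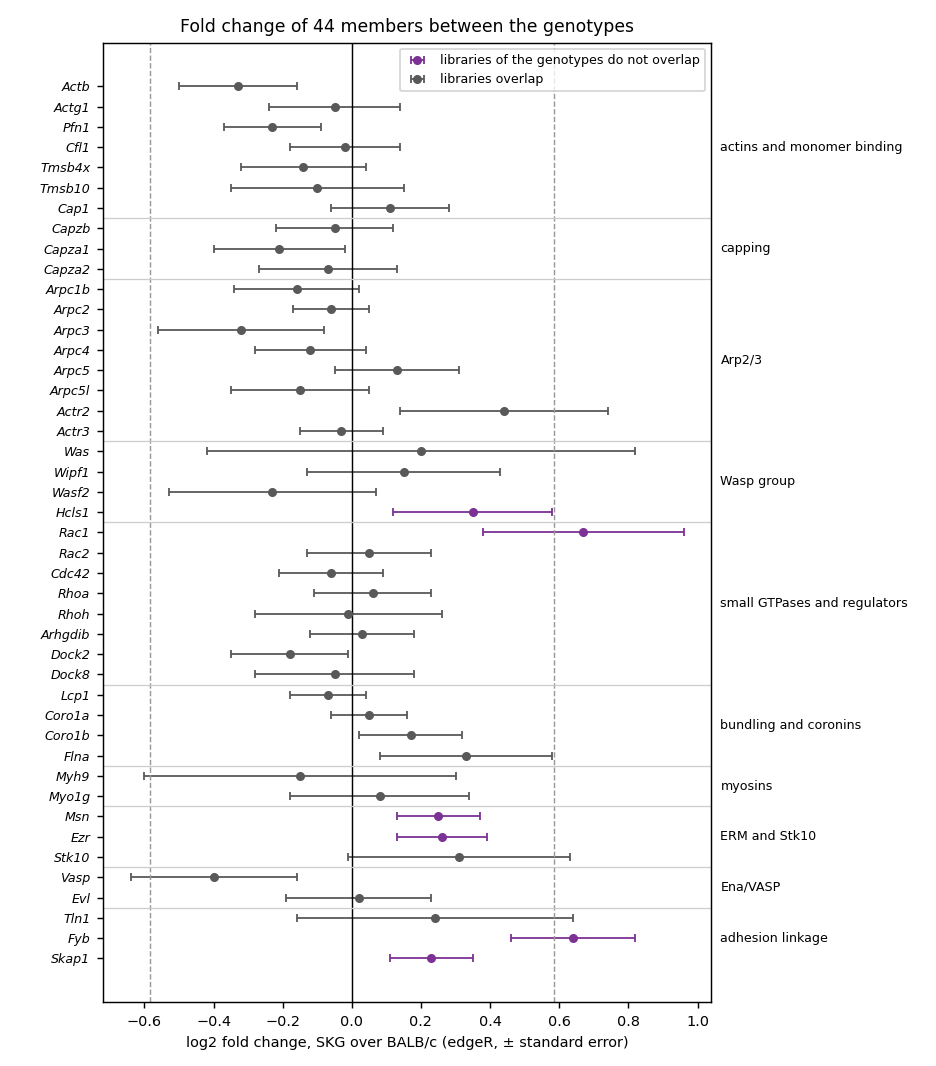
Log2 fold change of SKG over BALB/c with its standard error for 44 members, from edgeR (Vcl, with a standard error of 2.57, is left out); dashed lines mark a fold change of 1.5. Purple marks the 6 members whose libraries did not overlap, all of them to the right of 0.

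Among the actins and the proteins that bind the monomer, 6 of 7 had lower means in SKG and 0 were called. Pfn1 (profilin 1, which feeds monomers to growing ends) lies at 70651850 to 70654644 of chromosome 11 in GRCm38. Its level was 6534, 4963 and 5354 CPM in BALB/c against 4572, 4567 and 5212 CPM in SKG. SKG replicate 3 lay within the BALB/c range, and the log2 fold change was -0.23 (standard error 0.14, edgeR adjusted p = 0.972).

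Actb, the gene of β-actin, was at 3318, 3131 and 2614 CPM in BALB/c against 2034, 2255 and 2909 CPM in SKG. Here too SKG replicate 3 lay among the BALB/c libraries, with a log2 fold change of -0.33 (standard error 0.17, edgeR adjusted p = 0.953). Without SKG replicate 3, Actb and Pfn1 were lower in both SKG libraries than in every BALB/c library. Without BALB/c replicate 1, the log2 fold change of Pfn1 was -0.10 and that of Actb -0.25. Cfl1 (cofilin 1, which severs old filaments) was at 3961, 2902 and 2994 CPM in BALB/c against 2946, 3141 and 3630 CPM in SKG, with full overlap and a log2 fold change of -0.02 (standard error 0.16). Actg1 (γ-actin), Tmsb4x and Tmsb10 (thymosins that sequester monomers) and Cap1 (cyclase-associated protein, which recycles them) had log2 fold changes between -0.14 and 0.11. Over the 6 libraries they ranged from 1460 to 2102 CPM, from 1437 to 2197 CPM, from 452 to 763 CPM and from 359 to 528 CPM. Per kilobase the order of the group was Pfn1 at 2162, Tmsb4x at 1311, Cfl1 at 1147, Actb at 1012, Actg1 at 670, Tmsb10 at 472 and Cap1 at 130 CPM per kb.

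The capping protein genes Capzb, Capza1 and Capza2, whose products form a dimer of one α and one β subunit that closes filament ends, overlapped between the genotypes. Over the 6 libraries they ranged from 574 to 813, from 282 to 438 and from 224 to 335 CPM, with log2 fold changes of -0.05, -0.21 and -0.07. Per kilobase Capzb was at 204, Capza1 at 98.2 and Capza2 at 49.1 CPM per kb. The value of Capza1 rests on a gene with copies elsewhere. Its merged exons are shorter than those of Capza2 (3781 against 5890 bases), but its principal transcript is longer (3193 against 2537 bases).

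The genes of the Arp2/3 complex, which nucleates branches, were measured at uneven levels per kilobase. Arpc2 stood at 584, Arpc5 at 391, Actr3 at 314, Arpc1b at 167, Arpc4 at 164, Arpc3 at 106 and Arpc5l at 49.3 CPM per kb. The values of Actr3 and Arpc1b are less certain, since 49.8% and 42.2% of their 50-base windows recurred in other genes. Pdap1 on the opposite strand covers 18.2% of the exon bases of Arpc1b, and reads on the shared bases cannot be assigned by strand. Actr2, which encodes Arp2 itself, was lowest at 16.3 CPM per kb, and its level was 65.6, 58 and 92.4 CPM in BALB/c against 89.6, 128 and 76.1 CPM in SKG. The paralogue Arpc1a, outside the member list, stood at 46.3 CPM per kb beside Arpc1b. Of the 8 subunit genes 6 had lower means in SKG, with log2 fold changes from -0.32 for Arpc3, at 234 to 420 CPM, to 0.44 for Actr2, and the libraries overlapped for all 8. The complex as a whole took 0.597%, 0.512% and 0.543% of reads in BALB/c against 0.492%, 0.524% and 0.542% in SKG.

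Wasp and its partners, which switch on Arp2/3, were among the least counted members. Was, on chromosome X from 8081453 to 8090498, encodes the Wiskott-Aldrich syndrome protein and had 410, 923 and 602 reads in BALB/c against 722, 543 and 843 in SKG. These were 9.94, 24.9 and 13.3 CPM in BALB/c against 17.9, 14 and 23.3 CPM in SKG, fully overlapping (log2 fold change 0.20, standard error 0.62, edgeR adjusted p = 0.991). Its ubiquitous relative Wasl (N-Wasp), outside the member list, was at 8 CPM per kb against 7.23 for Was, and it lay between 23.2 and 71.6 CPM over the 6 libraries.

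Wipf1, which encodes the chaperone WIP that binds and stabilizes Wasp, was at 66.8, 107 and 89.2 CPM in BALB/c against 95.3, 74.6 and 121 CPM in SKG. The genotypes overlapped, with a log2 fold change of 0.15 (standard error 0.28). Wasf2 (Wave2, the Rac-driven activator) ranged from 70.4 to 139 CPM, with a log2 fold change of -0.23 (standard error 0.30). Hcls1, the haematopoietic relative of cortactin that stabilizes branches, was at 61.9, 77 and 86.7 CPM in BALB/c against 87.6, 107 and 92.2 CPM in SKG. The highest BALB/c and the lowest SKG library were almost level, and the log2 fold change was 0.35 (standard error 0.23, edgeR adjusted p = 0.985). With library totals or upper quartile factors as the scaling, or with no filter on low counts, the genotypes overlapped for Hcls1.

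Among the small GTPases and their regulators, 4 of 8 had higher means in SKG and 0 were called. Rac2, the haematopoietic Rac, was the highest GTPase at 441 CPM per kb. It was at 1635, 1233 and 1159 CPM in BALB/c against 1304, 1243 and 1633 CPM in SKG, overlapping, with a log2 fold change of 0.05 (standard error 0.18). Rac1, the ubiquitous Rac, on chromosome 5 from 143503634 to 143528036, was at 109, 208 and 230 CPM in BALB/c against 277, 271 and 320 CPM in SKG. BALB/c replicate 1 was the lowest library by far, and the SKG libraries lay above all 3 BALB/c libraries (log2 fold change 0.67, standard error 0.29, edgeR adjusted p = 0.944). Without BALB/c replicate 1 the log2 fold change was 0.41. Reads were counted without strand, and Daglb on the opposite strand covers 51.4% of the exon bases of Rac1. Daglb lay between 6.27 and 37.6 CPM, and reads on the shared bases cannot be assigned to either gene by strand. The part of this overlap in the difference was not tested.

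Rhoh, a GTPase of blood cells that cannot hydrolyse GTP and helps bring Zap70 to the TCR, was at 340, 307 and 288 CPM in BALB/c against 191, 367 and 371 CPM in SKG. SKG replicate 1 was lower than every other library, and the genotypes overlapped (log2 fold change -0.01, standard error 0.27). Dock2, the main Rac exchange factor of lymphocytes, was at 266, 355 and 334 CPM in BALB/c against 293, 305 and 242 CPM in SKG. Dock8, which activates Cdc42 and supports T cell shape and survival, was at 175, 306 and 199 CPM in BALB/c against 219, 229 and 210 CPM in SKG. Their log2 fold changes were -0.18 (standard error 0.17) and -0.05 (standard error 0.23), with overlap in both. Cdc42, Rhoa and the inhibitor Arhgdib, which holds GTPases in the cytosol, had log2 fold changes between -0.06 and 0.06. Cdc42 ranged from 533 to 688 CPM, Rhoa from 321 to 457 CPM and Arhgdib from 902 to 1201 CPM over the 6 libraries.

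The bundling proteins and coronins included 2 of the 5 most counted members, Lcp1 and Coro1a. Lcp1, the leukocyte plastin that bundles filaments, on chromosome 14 from 75131101 to 75230842, was at 4930, 5258 and 5029 CPM in BALB/c against 4966, 5234 and 4290 CPM in SKG. SKG replicate 3 was the lowest and the others were nearly level (log2 fold change -0.07, standard error 0.11, edgeR adjusted p = 0.991). Coro1a, which restrains Arp2/3 and is needed for T cell survival, was at 3143, 2744 and 2723 CPM in BALB/c against 2830, 3003 and 3096 CPM in SKG, with full overlap and a log2 fold change of 0.05 (standard error 0.11). Coro1b had a log2 fold change of 0.17. Flna (filamin A, a crosslinker that also ties filaments to integrins) was at 758, 1179 and 937 CPM in BALB/c against 1443, 1307 and 866 CPM in SKG, with SKG replicate 3 below the other SKG libraries. Of the myosins, Myh9 (non-muscle myosin IIA) was at 366, 485 and 372 CPM in BALB/c against 421, 537 and 143 CPM in SKG. Myo1g, a membrane-bound myosin of blood cells, had a log2 fold change of 0.08.

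The genes of moesin and ezrin, which tie filaments to the plasma membrane, and that of the kinase Stk10 all had higher means in SKG. Msn, which encodes moesin, the main ERM protein of lymphocytes, was at 1290, 1366 and 1319 CPM in BALB/c against 1772, 1512 and 1430 CPM in SKG. Each SKG library lay above each BALB/c library, and the BALB/c libraries were close together (log2 fold change 0.25, standard error 0.12, edgeR adjusted p = 0.952). Ezr, which encodes ezrin, was at 838, 780 and 702 CPM in BALB/c against 875, 906 and 1005 CPM in SKG, again without overlap (log2 fold change 0.26, standard error 0.13, edgeR adjusted p = 0.952). Stk10, a kinase that phosphorylates ERM proteins in lymphocytes, was at 140, 77.5 and 136 CPM in BALB/c against 180, 155 and 102 CPM in SKG, overlapping, with a log2 fold change of 0.31. The 3 genes together took 0.225%, 0.22% and 0.226% of reads in BALB/c against 0.283%, 0.253% and 0.247% in SKG, the only one of the 10 role groups whose sums did not overlap. The remaining ERM gene, Rdx (radixin), is no member and was at 20.5 CPM per kb, against 259 for Ezr and 229 for Msn, with a log2 fold change of 0.46 (standard error 0.45).

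The 4 genes of the link between actin and integrins also all had higher means in SKG. Fyb, on chromosome 15 from 6522853 to 6663313, encodes ADAP, the adaptor that joins the TCR signal to integrin activation. It was at 134, 151 and 131 CPM in BALB/c against 190, 202 and 255 CPM in SKG. The lowest SKG library was well above the highest BALB/c library, and Fyb was 1.55-fold higher in SKG (log2 fold change 0.64, standard error 0.18), yet its adjusted p over all genes was 0.734 with edgeR and 0.108 with DESeq2 without shrinkage. Skap1, which encodes the partner that ADAP binds, was at 638, 678 and 723 CPM in BALB/c against 763, 807 and 812 CPM in SKG, without overlap but with a fold change of only 1.17 (log2 fold change 0.23, standard error 0.12, edgeR adjusted p = 0.953).

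Tln1 (talin 1, which opens integrins) was at 762, 888 and 740 CPM in BALB/c against 1413, 992 and 419 CPM in SKG, the widest spread of an abundant member next to Myh9. Vcl (vinculin, which reinforces talin) had 0, 362 and 17 reads in BALB/c against 197, 354 and 0 in SKG. In the libraries with 0 reads, 3 reads would be 0.0727 CPM in BALB/c replicate 1 and 0.083 CPM in SKG replicate 3. These limits cover counting error only, and other libraries of the same genotypes held up to 9.76 CPM. Libraries of both genotypes were at 0, so the genotypes overlapped, and Ap3m1 on the opposite strand covers 25.5% of the exon bases of Vcl. The Ena/VASP proteins Vasp and Evl, which lengthen filaments, had log2 fold changes of -0.40 (standard error 0.24) and 0.02, at 204 to 396 and 130 to 199 CPM. Vasp thus had the lowest fold change of the 45 members, with SKG replicates 1 and 3 above the lowest BALB/c library. Diaph1, the formin whose older name is Diap1, ranged from 41.9 to 87.7 CPM, with a log2 fold change of -0.22 (standard error 0.36).

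**Figure D3:**
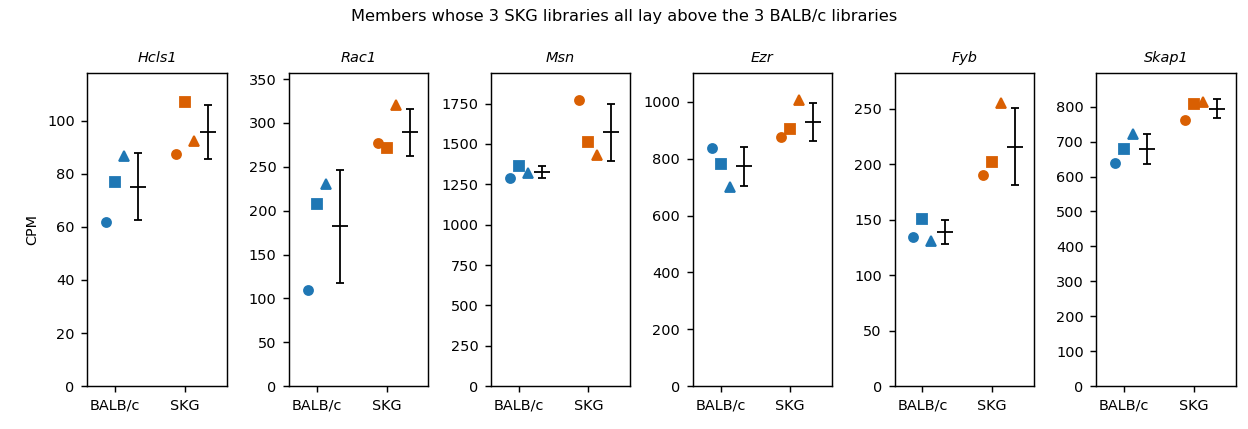
CPM in each library for the 6 members whose SKG libraries all lay above the BALB/c libraries (points, marker shape is the replicate; bars, mean ± SD, n = 3). As a ratio of the lowest SKG to the highest BALB/c library, the gap was widest for Fyb, at 131 to 151 CPM against 190 to 255 CPM. It was narrowest for Hcls1, at 86.7 against 87.6 CPM.

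Ratios of paralogous members within a library do not depend on the scaling between libraries. The ratio of Actb to Actg1 in CPM per kilobase was 1.57, 1.65 and 1.78 in BALB/c against 1.33, 1.34 and 1.39 in SKG. It was lower in each SKG library than in each BALB/c library, by a log2 difference of -0.29 (two-sided exact permutation test, p = 0.1, the smallest that 3 against 3 libraries allow, and 0.4 after Benjamini-Hochberg adjustment over 6 ratios). Actb was thus higher per kilobase than Actg1 in all 6 libraries. The counts behind this ratio are limited by the windows that Actg1 shares with other genes.

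The ratio of Rac2 to Rac1 was 21.8, 8.6 and 7.3 in BALB/c against 6.82, 6.65 and 7.39 in SKG, and BALB/c replicate 1 set the BALB/c mean (exact permutation test, p = 0.2). Per kilobase Arpc5 exceeded Arpc5l 7.22-fold ± 0.466 (SD, n = 3) among the BALB/c and 8.89-fold ± 2.12 (SD, n = 3) among the SKG libraries. The ratios of reads alone were 3.47, 3.58 and 3.92 in BALB/c against 3.69, 5.72 and 4.09 in SKG. The merged exons of Arpc5 and Arpc5l have 2276 and 4498 bases, but their principal transcripts 1914 and 1339 bases. The size of this excess therefore depends on the length used. Tmsb4x exceeded Tmsb10 by 2.84-fold and 2.78-fold on average, Coro1a exceeded Coro1b by 7.61-fold and 7.08-fold, and Capza1 exceeded Capza2 by 2.17-fold and 1.94-fold, all with overlap between the genotypes. None of the 6 ratios had an adjusted p under 0.4.

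**Figure D4:**
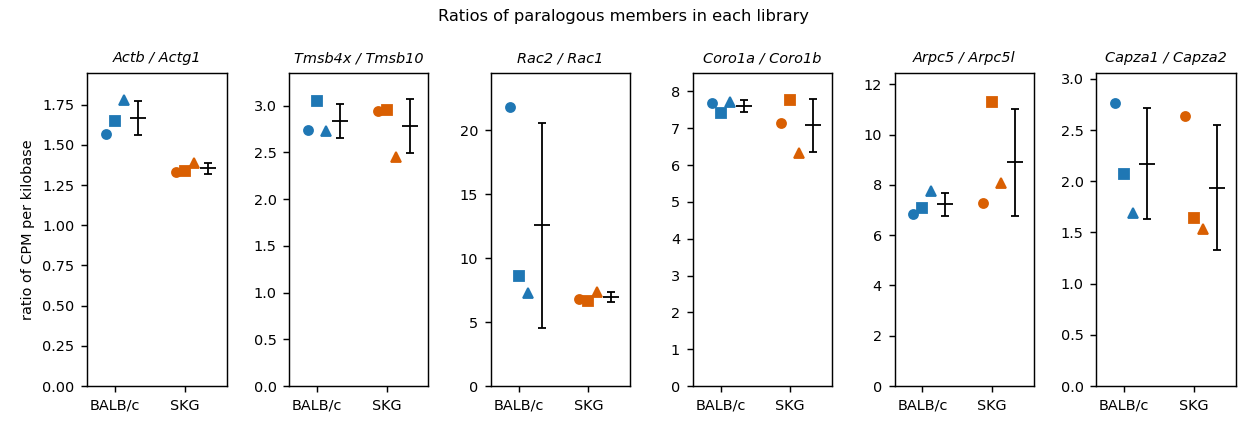
Ratio of CPM per kilobase for 6 pairs of paralogous members in each library (points; bars, mean ± SD, n = 3). The Actb to Actg1 ratios of SKG, 1.33 to 1.39, lay below those of BALB/c, 1.57 to 1.78, and the other 5 ratios overlapped.

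In SKG replicate 3 several members with a large length of annotated exon were low, and whether length bears on this was not tested. Of 40 members at 100 CPM or more, 7 have at least 8 kb of annotated exon (Lcp1, Flna, Tln1, Dock2, Dock8, Rhoh and Myh9). Their median deviation from each gene's mean, on the scale log2(CPM + 1), was -0.28 in SKG replicate 3 and 0.27 in SKG replicate 2. The 33 shorter members stood at 0.15 and -0.04 in these libraries. Over all 525 tested genes of that length and level, the medians were 0.01 in SKG replicate 3 and 0.13 in SKG replicate 2. In SKG replicate 3 the reads were 5170 for Myh9, 15154 for Tln1 and 31309 for Flna, against 16978, 56913 and 58159 in SKG replicate 1. By this measure not all long members were low there, since Rhoh deviated by 0.287 and Dock8 by -0.067. The measure merges all annotated exons, and the principal transcripts of Rhoh and Lcp1 have only 5093 and 3841 bases. Flna, Tln1, Dock8, Myh9 and Dock2 have principal transcripts of 6409 to 8456 bases, and all lay below their means in SKG replicate 3. Without SKG replicate 3, 14 members did not overlap (9 higher and 5 lower in SKG) and 5 had an unadjusted p under 0.05 with edgeR, namely Actb, Flna, Msn, Tln1 and Fyb, while 25.8% of all genes tested did not overlap and 5.79% had such a p.

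**Figure D5:**
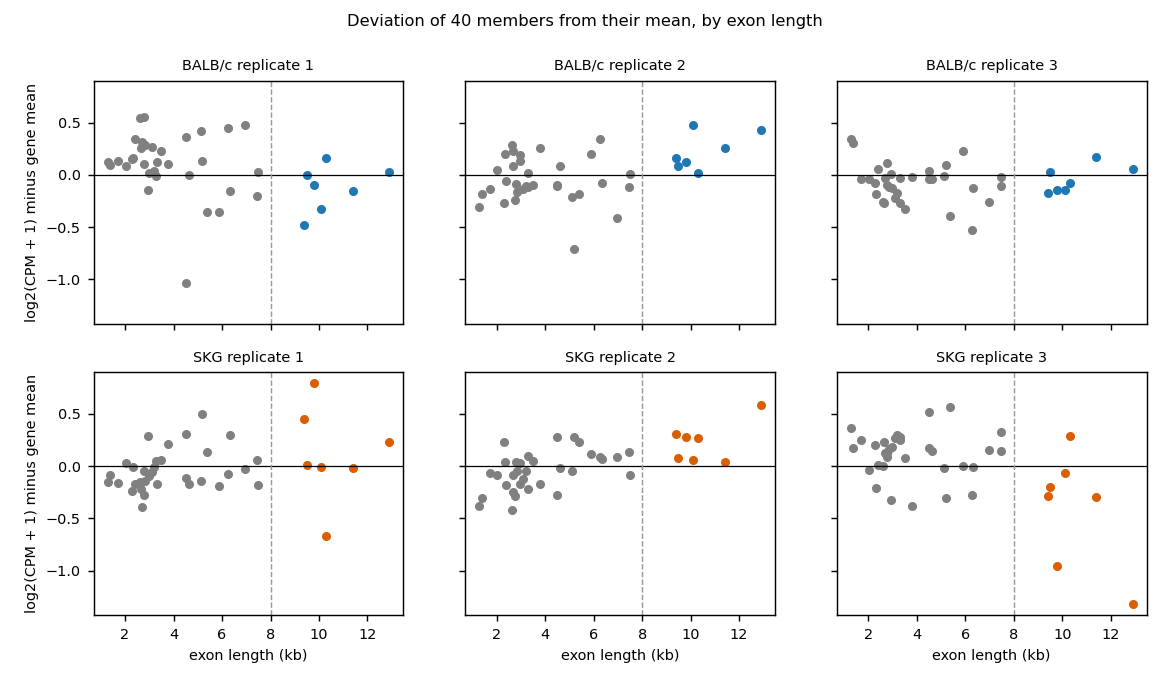
Deviation of 40 members from their mean over the 6 libraries, on the scale log2(CPM + 1), against annotated exon length in kb, with 1 panel per library. The 7 members of at least 8 kb (coloured, right of the dashed line) had a median of -0.28 in SKG replicate 3 and 0.27 in SKG replicate 2.

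A wider list of 101 other actin genes, none of them a member, was read in the same fit. Of these, 85 were tested, 0 were called by edgeR and 9 had an unadjusted p under 0.05 (6 higher in SKG, and 5.45% of all genes tested had such a p), with a median log2 fold change of 0.14. Of the 85, 11 lay higher in SKG without overlap and 4 lay higher in BALB/c, where all genes tested gave 6.77% and 7.12%. Wdr1, which helps cofilin take filaments apart, was at 521, 634 and 645 CPM in BALB/c against 793, 871 and 931 CPM in SKG, without overlap (log2 fold change 0.53, standard error 0.14, edgeR adjusted p = 0.686). Rac3, another Rac, had 17, 34 and 74 reads in BALB/c against 0, 1 and 0 in SKG (adjusted p = 0.628, edgeR). The formin gene Inf2 had 45, 121 and 173 reads in BALB/c against 0, 4 and 2 in SKG (adjusted p = 0.734, edgeR). DESeq2 without shrinkage called 5 genes of this list, Dstn, Pak1, Swap70, Rac3 and Inf2, of which the first 3 were higher in SKG, against 2.58% of all genes with an adjusted p. Of these, Pak1, a kinase driven by Rac and Cdc42, was chosen for mention after its values were seen. It had 1, 2 and 136 reads in BALB/c against 1086, 1210 and 699 in SKG (DESeq2 adjusted p = 0.0819). In the edgeR fit Rac3 and Inf2 passed the filter on low counts only through their BALB/c libraries, and Pak1 through its SKG libraries. Their edgeR p-values and lack of overlap are therefore no independent sign of a difference.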

How the data were processed

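RNA of 6 libraries, 3 of BALB/c and 3 of SKG stage 0 iNKT cells, was amplified and sequenced. The sample labels name a SMART-Seq v4 kit with 18 preamplification cycles and the study's methods another kit, which was not resolved. According to the submitters' processing notes and the study's methods, the authors aligned 50 nt reads with HISAT2 2.1.0 to GRCm38 and counted those on exons with featureCounts of Subread 1.4.4 and Ensembl 85, at a mapping quality of at least 10 and without strand. The deposited counts are whole numbers per gene, neither normalized nor filtered. A second deposited table, the authors' DESeq2 comparison, was not used.

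Counts were filtered with filterByExpr, TMM-normalized and tested over 12312 genes with edgeR 4.0.16 (quasi-likelihood, no covariates, Benjamini-Hochberg FDR under 0.1 and fold change of at least 1.5) in R 4.3.3. DESeq2 1.42.0 and limma-voom (limma 3.58.1) were alternatives, as were other scalings and filters, replicate blocks and leaving out each library. Standard errors were derived from each log2 fold change and its F statistic. The fit was tested on simulated data. Exon lengths and overlaps came from GENCODE for GRCm38, promoter windows from RefSeq. PCR copies cannot be told from separate molecules, so intervals cover counting error only. Libraries are separate pools of mice. Numbers in titles (correlations of deviations -0.145 to -0.00962) and library numbers (-0.0384 and 0.00289) did not pair the libraries.

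The members and lists were chosen with earlier results of these data known. Full values are given for the 5 most counted members, members without overlap or with an unadjusted p under 0.05, Was, Wipf1, Dock2, Dock8, Coro1a, Rac2 and Rhoh, members with 0 reads in a library, and wider-list genes with an unadjusted p under 0.01. Other members are given by range within their role, with the library values of Flna, Myh9, Tln1, Stk10 and Actr2 chosen after they were seen.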

Additional observations from a re-analysis of the deposited data

How the results depend on the processing

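Under every setting tried, 0 members were called. Counts that moved by more than 1.5 times were the genes called over the whole table, which were 0 with edgeR, 370 with DESeq2 without shrinkage, 231 with shrunken fold changes, 2 without a filter on low counts and 1 with at least 10 reads required in every library. Of the wider actin list DESeq2 called 5 genes without and 4 with shrinkage. Members with an unadjusted p under 0.05 numbered 5 with limma-voom (Rac1, Msn, Ezr, Fyb and Skap1) and 2 each with upper quartile factors, no filter, the stricter filter, and the title number as a replicate block, a number that did not pair the libraries. Over all genes tested the share with such a p was 7.86%, 5.4%, 4.4%, 7.24% and 4.75% in these settings. With the library number as a replicate block the 1 such member was Rac1, not Fyb. BALB/c replicate 3 (library number 4) and SKG replicate 1 (library number 1) stood alone in their blocks. That fit therefore compared the genotypes only in the other libraries, and the part of this in the change was not tested.

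Leaving out 1 library at a time, members with such a p numbered 1 to 5 (3 without BALB/c replicate 1 or 3, 5 without SKG replicate 3), against 4.66% to 7.16% of all genes tested. Members without overlap numbered 13, 11 and 12 without BALB/c replicates 1, 2 and 3, and 10, 6 and 14 without SKG replicates 1, 2 and 3, since fewer libraries overlap less often. Over all genes tested the shares without overlap were 20.7%, 22.4%, 24.4%, 23.6%, 22% and 25.8% in the same order. The log2 fold change then ran from -0.12 to 0.02 for Lcp1, -0.11 to 0.14 for Cfl1, -0.05 to 0.65 for Was, -0.03 to 0.31 for Wipf1, -0.20 to 0.22 for Dock8, -0.06 to 0.23 for Rac2, -0.14 to 0.24 for Rhoh and -0.46 to 4.60 for Vcl, and the log2 difference of the ratio from -0.08 to 0.06 for Tmsb4x to Tmsb10 and from -0.43 to 0.01 for Capza1 to Capza2. Values near 0 also changed sign for Cfl1 with DESeq2 (0.00 in both forms), Dock8 with limma-voom (0.01) and Rhoh with DESeq2 (0.01 in both forms), DESeq2 size factors in edgeR (0.01) and the library number as a replicate block (0.19). Of 333 recomputed fold changes of 21 named genes, 306 kept their direction and call, 23 changed sign in 8 genes, and 4 were calls of Rac3 and Inf2 by DESeq2. With pools of 3 mice and about 1000 cells each, edgeR called 0 of 12312 genes, and differences larger than the standard errors given also went uncalled. Fyb was one, at a log2 fold change of 0.64 with a standard error of 0.18. That 0 members were called therefore does not show that the members were unchanged. An exact permutation test of 3 libraries against 3 cannot give a p below 0.1.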

Other observations

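Several members and genes of the wider list have a close relative. For the Wave complex (whose pair here holds no member), Arp3, plastin and talin, the relative had 0 reads in at least 2 of the 6 libraries. Nckap1l, the blood cell subunit of the Wave complex, was at 262, 329 and 345 CPM in BALB/c against 371, 365 and 472 CPM in SKG, whereas its ubiquitous paralogue Nckap1 had 0, 0 and 135 reads in BALB/c against 20, 109 and 1 in SKG. Actr3b had 0, 199 and 36 reads in BALB/c against 6, 0 and 0 in SKG, beside Actr3 at 314 CPM per kb. Pls3 had 1274, 0 and 490 reads in BALB/c against 147, 301 and 0 in SKG, beside Lcp1. Tln2 had 0, 441 and 2 reads in BALB/c against 25, 0 and 0 in SKG, beside Tln1.

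Libraries of the same genotype thus ranged from 0 reads to 135 or more in 1 or both genotypes for each of these 4 genes. Wasl, Arpc1a and Cap2 were counted in every library, with Cap2 at 66.7 CPM per kb against 130 for Cap1. Srf, which encodes the factor that binds the CArG box, was at 58, 47.4 and 31.8 CPM in BALB/c against 54.2, 44.8 and 70.2 CPM in SKG, overlapping, with a log2 fold change of 0.30 (standard error 0.36, edgeR adjusted p = 0.991). Tpm1, a tropomyosin that lies along filaments, was at 82.7, 105 and 80.6 CPM in BALB/c against 39.8, 55.5 and 61.2 CPM in SKG, without overlap (log2 fold change -0.78, standard error 0.27, edgeR adjusted p = 0.834), and Tpm3 and Tpm4 had log2 fold changes of -0.10 and -0.18. These genes were chosen for mention after their values were seen.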
